A study of Mus musculus with 6 samples.

Results

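The P2ry genes encode the P2Y family of G protein-coupled receptors, most of which sense nucleotides outside the cell. The 7 genes described here, P2ry1, P2ry2, P2ry6, P2ry10, P2ry12, P2ry13 and P2ry14, were taken as those array probe sets that the platform annotation assigns to exactly 1 of these symbols. They are 7 of the 22103 genes named on the array and were represented by 51 probe sets. The RNA came from KLS cells, sorted marrow cells positive for Kit and Sca-1 and negative for lineage markers, among which are the stem cells of the blood. There were 3 arrays of wild-type cells and 3 of Dnmt3a+/- cells, in which 1 copy of the DNA methyltransferase gene Dnmt3a is disrupted. The labels name neither the construction of the allele, nor the age of the mice, nor whether replicates are separate animals, so the spread between arrays may be partly technical. The values are log2 of RMA-normalized intensities. A gene value is the mean over the gene's probe sets whose mean across the 6 arrays exceeded the median of all probe sets on the array, 5.89. The 7 genes were chosen by family name with their log2 differences between the genotypes already known, so those differences are described below and not tested.

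P2Y receptors differ in their ligands and in the G proteins they engage. P2ry1, P2ry12 and P2ry13 encode receptors for ADP. P2ry2 encodes a receptor for ATP and UTP, P2ry6 one for UDP, and P2ry14 one for UDP-glucose and related UDP sugars. P2ry10 was placed in the family by its sequence, and its product responds to lysophosphatidylserine, a lysophospholipid. Nucleotides leave cells through channels and vesicles and are broken down at the cell surface by ectonucleotidases, ending in adenosine, which has receptors of its own. In blood-forming tissue P2ry14 is known from primitive progenitor cells, P2ry1 and P2ry12 from platelets, and P2ry10 from lymphoid cells.

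Promoter windows are shown for 3 of the genes whose values did not overlap between the genotypes, because Dnmt3a acts on cytosines of CpG dinucleotides. Methylation was not measured here, so the windows show only which bases could carry the mark. Sequences are from RefSeq (GRCm38.p6), run 5′ to 3′ from 250 bases before to 50 bases after a transcript start, and have each CpG (the letters CG, which read the same on both strands) in capitals. Their positions are chrX:107088242-107088541 on the + strand for P2ry10, chr3:59153443-59153742 on the - strand for P2ry14 and chr7:101012004-101012303 on the - strand for P2ry2.
P2ry10: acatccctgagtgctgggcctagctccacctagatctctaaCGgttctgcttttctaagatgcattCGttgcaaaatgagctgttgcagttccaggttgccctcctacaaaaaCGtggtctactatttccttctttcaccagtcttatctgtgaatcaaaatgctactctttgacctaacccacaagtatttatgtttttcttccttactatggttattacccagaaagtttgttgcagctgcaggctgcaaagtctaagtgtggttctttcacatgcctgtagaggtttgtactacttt
P2ry14: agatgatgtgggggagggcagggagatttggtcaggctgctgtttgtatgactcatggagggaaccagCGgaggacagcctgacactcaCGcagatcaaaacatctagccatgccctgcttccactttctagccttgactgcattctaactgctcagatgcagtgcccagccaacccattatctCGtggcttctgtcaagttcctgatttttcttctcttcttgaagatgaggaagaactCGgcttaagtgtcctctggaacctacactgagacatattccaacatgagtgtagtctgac
P2ry2: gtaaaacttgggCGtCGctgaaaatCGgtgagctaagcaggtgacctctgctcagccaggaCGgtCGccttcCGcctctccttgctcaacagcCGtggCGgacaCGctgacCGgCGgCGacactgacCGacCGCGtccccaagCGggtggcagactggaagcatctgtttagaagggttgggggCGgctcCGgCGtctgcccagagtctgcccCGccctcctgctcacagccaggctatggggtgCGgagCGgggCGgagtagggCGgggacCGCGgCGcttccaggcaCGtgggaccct
The P2ry10 window held 3 CpGs, the P2ry14 window 4 and the P2ry2 window 28. Over all 32851 windows of this length the median was 7, and 94.6% held at least 1. Of all windows, 76.7% held 3 or more CpGs, 68.6% held 4 or more and 14.2% held 28 or more. Windows were found for 6 of the 7 genes. P2ry1 had 25 CpGs, P2ry12 had 4 and P2ry13 had 6. The second P2ry10 start had 5, the other P2ry14 starts had 1, 3 and 4, and the second P2ry2 start had 30. P2ry1 and P2ry2 thus had CpG-rich starts, and the other 4 genes had starts below the median of all windows.

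The genes also cluster in the genome. In the RefSeq gene table P2ry12, P2ry13 and P2ry14 lie on chromosome 3 inside the span of Med12l, a Mediator subunit gene on the opposite strand. The related receptor gene Gpr171 lies in the same span. P2ry2 and P2ry6 are neighbours on chromosome 7, and P2ry10 lies on the X chromosome between Lpar4 and its close relative P2ry10b. P2ry10 is also listed as an older name of P2ry10b. The platform names P2ry10b separately under its older symbol A630033H20Rik, and those probe sets were kept apart. The labels do not say whether the probe sets tell Med12l from the receptor genes on its other strand. The gene value of Med12l was 8.37, 8.17 and 8.07 on wild-type arrays and 8.10, 7.76 and 8.20 on Dnmt3a+/- arrays, with overlapping genotypes.

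Dnmt3a itself read 8.51, 8.70 and 8.50 on the wild-type arrays and 8.38, 8.20 and 8.20 on the Dnmt3a+/- arrays. The difference was -0.31 (SE 0.12, limma adjusted p = 0.631). The labels and the targeted gene thus ran the same way, though 9.05% of all genes were also lower without overlap. Kit (10.68 to 10.80 in wild-type, 10.59 to 10.65 in Dnmt3a+/- cells) and Ly6a, which encodes Sca-1 (8.30 to 8.66 and 8.38 to 8.61), were bright on every array. Dnmt3a+/- replicate 2 was the least like the rest: across genes its correlations with the other arrays averaged 0.904, where those of the others averaged 0.938 to 0.949. The differences of the P2ry genes are therefore also given without it. So are those of genes of the pathway lists below whose printed difference, over probe sets past the filter, moved by over 1.5 times. Values over all probe sets, and those of Med12l and the marker genes, are given with all 6 arrays only. Across all 20059 genes with a value, 0 passed (limma, adjusted p 0.05, 0.0%), and 1502 had an unadjusted p under 0.05 (7.49%). On bulk arrays, fewer cells of a type and less RNA per cell cannot be told apart.

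Of the 51 probe sets of the P2ry genes, 36 passed the filter and 18 lay above the 75th percentile of all probe sets (7.22). The number past the filter was 10 of 10 for P2ry14, 5 of 5 for P2ry13, 8 of 10 for P2ry1, 5 of 8 for P2ry2 and 4 of 5 for P2ry6. It was 3 of 7 for P2ry12 and 1 of 6 for P2ry10. All genes thus kept a value, but those of P2ry12 and P2ry10 rest on few probe sets. P2ry12 had 1 further probe set, 5269277, just under the filter at 5.89.

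**Figure D1:**
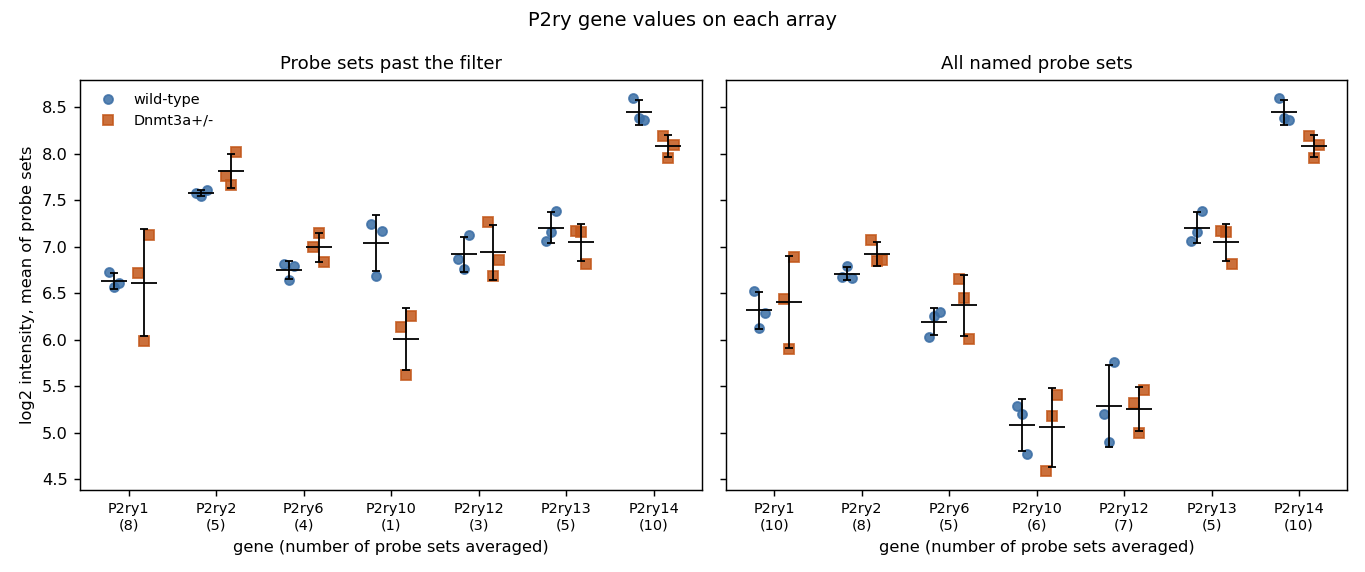
Gene values of the 7 P2ry genes on each array in log2 intensity, over the probe sets past the filter (left) and over all named probe sets (right); circles are wild-type, squares Dnmt3a+/- arrays, and bars give the mean and SD of 3 arrays. P2ry14 lies below wild-type on every Dnmt3a+/- array in both panels, whereas the gap of P2ry10 (-1.03) is seen only on the left and is -0.03 on the right.

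P2ry14, the UDP-sugar receptor gene, was lower over the largest number of probe sets. Its gene value was 8.60, 8.38 and 8.36 on the wild-type arrays and 8.19, 7.95 and 8.10 on the Dnmt3a+/- arrays. All Dnmt3a+/- arrays were below all wild-type arrays. The means were 8.44 ± 0.13 and 8.08 ± 0.12 (SD, n = 3), a log2 difference of -0.36 (SE 0.12), or a level 22.3% lower. The difference was -0.30 without Dnmt3a+/- replicate 2.

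The 10 probe sets of P2ry14 did not shift equally. Differences ran from -1.28 to 0.17, with 7 negative and 3 positive. Probe set 5080878 was at the low end, with 9.63, 8.68 and 8.68 on wild-type arrays and 7.83, 7.74 and 7.58 on Dnmt3a+/- arrays (difference -1.28, SE 0.32). Probe set 5543283 read 7.47, 7.67 and 8.02 against 6.71, 7.38 and 6.72 (difference -0.78, SE 0.29). These were the 2 P2ry14 probe sets without overlap. The 5 brightest probe sets all overlapped and differed in sign. The brightest, 5407392, differed by -0.28 (SE 0.23) and 5336360 by -0.33 (SE 0.24), whereas 4836005 was at 0.00 (SE 0.21), 5483517 at 0.05 (SE 0.22) and 4666940 at 0.17 (SE 0.31). Without 5080878 the gene difference was -0.26, and with any 1 of the 10 probe sets left out it stayed between -0.42 and -0.26 with no overlap. At least 1 of 5080878 and 5543283 remained each time. The check therefore cannot show whether the other 8 probe sets would separate the genotypes, and the gene value over those was not computed. The positions of the probe sets within the gene were not used here.

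P2ry10, the lysophosphatidylserine receptor gene, had the largest difference of the family, and it rested on 1 probe set. Probe set 5571384 read 7.25, 6.69 and 7.17 on wild-type arrays and 6.14, 5.62 and 6.26 on Dnmt3a+/- arrays. Every Dnmt3a+/- array was below every wild-type array. The means were 7.04 ± 0.30 and 6.01 ± 0.34 (SD, n = 3), a log2 difference of -1.03, or a level 51.0% lower. Its SE was 0.21 in the fit over genes. In the fit over single probe sets, which gives the SEs of the other probe sets, it was 0.28. The difference was -0.84 without Dnmt3a+/- replicate 2.

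The other 5 probe sets of P2ry10 fell below the filter, with means of 3.55 to 5.20, and showed no such gap. Their differences were 0.56 (SE 0.36), 0.28 (SE 0.45), 0.26 (SE 0.30), -0.06 (SE 0.42) and -0.19 (SE 0.71), each with overlapping genotypes. Averaged over all 6 probe sets, P2ry10 read 5.29, 5.20 and 4.77 on wild-type arrays and 4.59, 5.18 and 5.40 on Dnmt3a+/- arrays. The genotypes then overlapped, with a difference of -0.03. The P2ry10 result is thus a property of probe set 5571384 and was not shared by the rest of the gene's probe sets, all of which were dim.

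**Figure D2:**
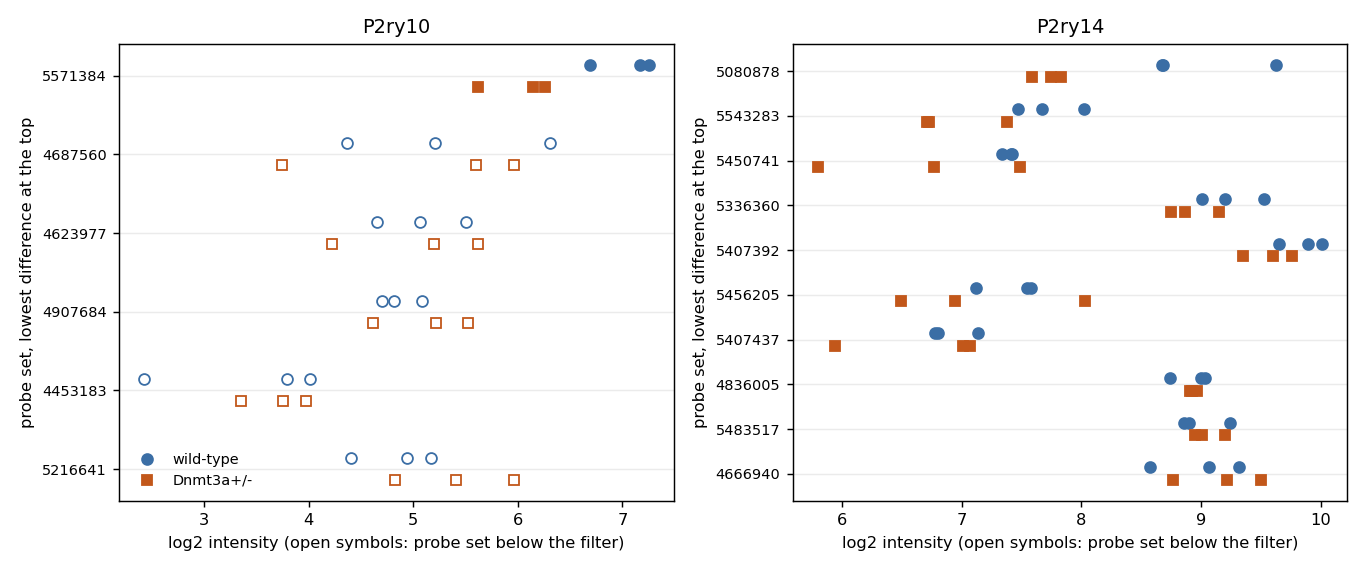
Log2 intensity of each P2ry10 and P2ry14 probe set on each array (circles wild-type, squares Dnmt3a+/-; open symbols mark probe sets below the filter), ordered by their difference. For P2ry10 only 5571384 separates the genotypes and the 5 others are open; for P2ry14, 5080878 and 5543283 separate them.

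P2ry2, the ATP and UTP receptor gene, read 7.57, 7.55 and 7.61 on wild-type arrays and 7.76, 7.66 and 8.02 on Dnmt3a+/- arrays. All Dnmt3a+/- arrays were above all wild-type arrays, the closest pair being 0.05 apart. The means were 7.58 ± 0.03 and 7.81 ± 0.19 (SD, n = 3), a difference of 0.23 (SE 0.12), or a level 17.6% higher. Without Dnmt3a+/- replicate 2 it was 0.31, and without replicate 3 it was 0.13.

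For P2ry2, 5 of 5 probe sets past the filter had a positive difference. Probe set 4513795 read 8.23, 8.14 and 8.16 on wild-type arrays and 8.64, 8.72 and 8.87 on Dnmt3a+/- arrays, a difference of 0.56 (SE 0.20). The brightest, 4860952, differed by 0.18 (SE 0.20) and also did not overlap. The remaining 3 overlapped, with differences of 0.37, 0.06 and 0.00. The gene value overlapped once 4441979, 4513795 or 4860952 was left out, and with the median of probe sets in place of the mean (difference 0.14). Over all 8 probe sets the difference was 0.21 with no overlap.

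P2ry6, the UDP receptor gene, read 6.81, 6.64 and 6.80 on wild-type arrays and 6.997, 7.15 and 6.83 on Dnmt3a+/- arrays. All Dnmt3a+/- arrays were higher, although the lowest of them was only 0.02 above the highest wild-type array. The means were 6.75 ± 0.09 and 6.99 ± 0.16 (SD, n = 3), a difference of 0.24 (SE 0.12), or a level 18.3% higher. Without Dnmt3a+/- replicate 2 it was 0.17. Most of it came from probe set 5570657, with 6.17, 6.27 and 5.89 against 6.52, 7.36 and 6.64 (difference 0.73, SE 0.29). Without that probe set the gene difference was 0.08 with overlap, and the genotypes also overlapped without 5242058 (difference 0.27). Probe set 5242058 passed the filter of 5.889 through its Dnmt3a+/- arrays (mean 6.061), its wild-type mean being 5.887. The lack of overlap of the gene value thus depends partly on the filter. The brightest probe set, 4891245, differed by 0.04 (SE 0.21), and over all 5 probe sets the genotypes overlapped (difference 0.18).

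The ADP receptor genes overlapped between the genotypes. P2ry13 read 7.06, 7.16 and 7.39 on wild-type arrays and 7.17, 7.15 and 6.82 on Dnmt3a+/- arrays, with means of 7.20 ± 0.17 and 7.05 ± 0.20 (SD, n = 3) and a difference of -0.16 (SE 0.15), or -0.21 without Dnmt3a+/- replicate 2. Its 5 probe sets ran from -0.74 (4597882, SE 0.36) to 0.37 (5192150, SE 0.41), with 2 negative and 3 positive, and none separated the genotypes. The other negative one, 5592316 (-0.54, SE 0.48), passed the filter of 5.889 through its wild-type arrays (mean 6.414), its Dnmt3a+/- mean being 5.874. With 1 probe set left out the gene difference ran from -0.29 to -0.01, and it was -0.06 without 5592316. The difference was -0.04 without Dnmt3a+/- replicate 3 and -0.06 without wild-type replicate 3. With the median of probe sets the sign turned, to 0.04.

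P2ry12, the ADP receptor gene best known from platelets and microglia, read 6.87, 6.77 and 7.13 on wild-type arrays and 7.27, 6.69 and 6.86 on Dnmt3a+/- arrays. The difference was 0.02 (SE 0.17, 95% confidence interval -0.38 to 0.42), 0.14 without Dnmt3a+/- replicate 2 and -0.14 without Dnmt3a+/- replicate 1. Its brightest probe set, 5544139, read 7.76, 7.57 and 7.64 against 7.84, 7.63 and 7.54, a difference of 0.01 (SE 0.21). Over all 7 probe sets the difference was -0.03. The interval is wide enough to hold a shift of the size seen for P2ry14 in either direction.

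P2ry1, the calcium-coupled ADP receptor gene, had close means and unequal spreads, which were not tested. It read 6.72, 6.56 and 6.61 on wild-type arrays and 6.72, 5.99 and 7.12 on Dnmt3a+/- arrays, with SDs of 0.08 and 0.57 (n = 3). The difference was -0.02 (SE 0.26), 0.29 without Dnmt3a+/- replicate 2 and -0.28 without Dnmt3a+/- replicate 3. Probe set 4782972 carried much of the spread, with 7.11, 5.20 and 8.95 on the Dnmt3a+/- arrays against 7.29, 6.80 and 6.94 in wild-type. Probe set 5509716 ran the same way, at 5.78, 4.62 and 7.81 against 6.39, 5.42 and 5.90. One dim probe set, 5295693 (mean 5.63, below the filter), was higher on all Dnmt3a+/- arrays, at 6.43, 6.23 and 6.51 against 5.61, 3.76 and 5.23 (difference 1.52, SE 0.48). The 8 probe sets past the filter all overlapped.

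**Figure D3:**
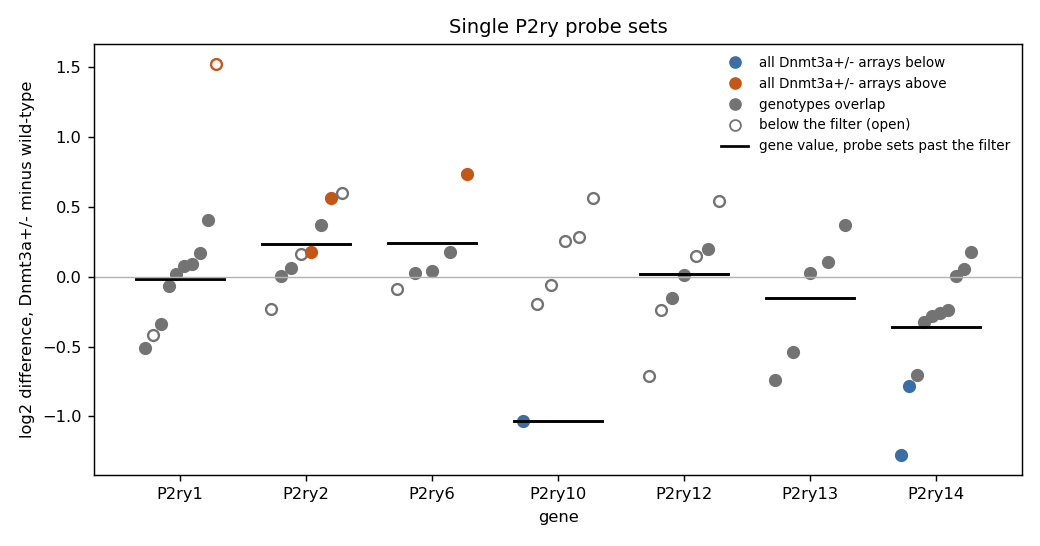
Log2 difference (Dnmt3a+/- minus wild-type) of each of the 51 P2ry probe sets; filled points passed the filter, open points did not, colour marks probe sets whose genotypes do not overlap, and black lines give the gene value. Among the 36 filled points, 3 lie apart below 0 (1 of P2ry10 and 2 of P2ry14) and 3 above 0 (2 of P2ry2 and 1 of P2ry6).

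Across the family the direction was mixed. Of the 7 genes, 4 had negative and 3 positive differences, with a median of -0.02, the same as the median over all 20059 genes (-0.02). P2ry10 and P2ry14 were lower without overlap, as were 9.05% of all genes. P2ry2 and P2ry6 were higher without overlap, as were 6.74% of all genes. Nothing is read from these counts, since the genes were proposed on this contrast. Of the 36 probe sets past the filter, 3 were lower (8.33%, against 6.1% of all 628415 probe sets past the filter) and 3 higher (8.33%, against 6.31%). In the chromosome 3 cluster the differences were -0.36 for P2ry14, -0.16 for P2ry13 and 0.02 for P2ry12, and how far they differ from each other was not tested. Their neighbour Gpr171, an orphan receptor gene, read 9.75, 9.74 and 9.74 on wild-type arrays and 9.55, 9.45 and 9.68 on Dnmt3a+/- arrays.

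**Figure D4:**
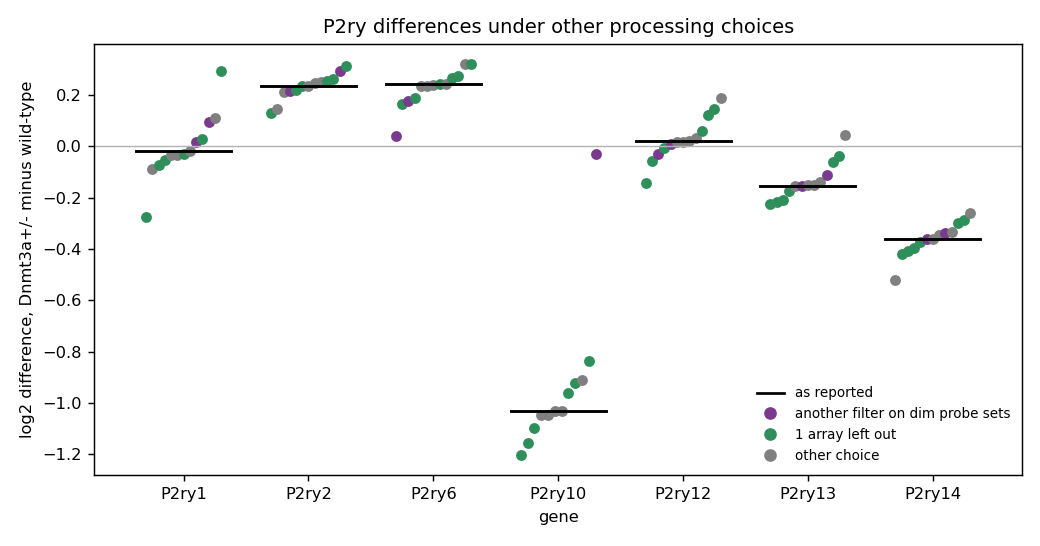
Log2 difference of each P2ry gene as reported (black line) and under the other processing choices (points: another filter, 1 array left out, or another choice). P2ry14 stays between -0.52 and -0.26, whereas P2ry10 moves to -0.03 when dim probe sets are kept.

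For each P2ry gene, the genes of most similar pattern were taken as those with the smallest mean absolute distance over the 6 arrays after centring, among 16217 genes with at least 3 probe sets. With so many candidates and 6 arrays, close matches are easily found, so they are descriptions. Nearest to P2ry10, whose pattern here is that of probe set 5571384 alone, were Rtp4, an interferon-inducible gene (distance 0.13), Ccdc32 (0.17) and Slc35d3 (0.17). Rtp4 read 8.95, 8.25 and 8.74 on wild-type arrays and 8.12, 7.44 and 8.08 on Dnmt3a+/- arrays. P2ry14 was followed most closely by Plekho2, Sla2 and Psap, the prosaposin gene, each at 0.03 to 0.04. The genes nearest to P2ry1 were Rfc3, a replication factor subunit gene (0.04), Adi1 (0.05) and the respiratory chain gene Sdhb (0.05), which shared its low value on Dnmt3a+/- replicate 2 and its high value on replicate 3. Those nearest to P2ry2 were Vwa1, Krtap5-2 and Otop1 (0.02 to 0.04), and to P2ry6 Sds, 4930412C18Rik and Prss28 (0.01 to 0.02). P2ry12 was nearest to 6430562O15Rik, Far2 and Ms4a2 (0.05 each), and P2ry13 to Rpl19-ps3, Prickle4 and Wdr17 (0.03 to 0.04).

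The surrounding pathway was followed in 9 gene lists, of which 104 of 110 genes had a value. None passed (limma, 0 lower and 0 higher at adjusted p 0.05, smallest adjusted p = 0.631). At an unadjusted p under 0.05, 8 were lower, or 8 of 104, where 4.57% of all genes were, and 1 was higher, where 2.92% of all genes were. Without overlap, 12 were lower (9.05% of all genes) and 3 higher (6.74% of all genes). Of the 104, 71 had negative differences with a median of -0.12, where 54.3% of all genes were negative with a median of -0.02. List medians were not computed without Dnmt3a+/- replicate 2. The lists were chosen with earlier results of these data known. Nothing is therefore read from their counts and medians, here or in the paragraphs on single lists below.

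Receptors related to the P2Y family by sequence or neighbourhood had 13 of 16 negative differences (median -0.22), 4 of them without overlap. The shares over all genes were 54.3% negative and 9.05% lower without overlap. Gpr18, a lipid-sensing receptor gene, read 8.57, 8.62 and 8.43 on wild-type arrays and 8.16, 7.72 and 7.76 on Dnmt3a+/- arrays, a difference of -0.66 (SE 0.15, limma adjusted p = 0.631). All 3 Dnmt3a+/- arrays were lower. Gpr132, another receptor gene of lipid signals, differed by -0.42 (SE 0.14), also without overlap. F2rl2, a protease-activated receptor gene, differed by -0.45 (SE 0.20) with overlap. Of the P2Y receptor genes not among the 7, P2ry4 differed by 0.24 (SE 0.16) over 2 probe sets, and P2ry10b by 0.00 (SE 0.40) on 1 probe set, or -0.36 without Dnmt3a+/- replicate 2.

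Among 22 ectonucleotidases and adenosine-handling genes, 14 were negative (median -0.11). Entpd1, which encodes CD39, the enzyme that removes ATP and ADP, read 8.11, 7.91 and 8.08 on wild-type arrays and 7.88, 7.42 and 7.40 on Dnmt3a+/- arrays. The genotypes did not overlap, and the difference was -0.46 (SE 0.15). Entpd5 and Entpd6, of the same enzyme family but not known as cell-surface enzymes, differed by -0.53 (SE 0.23) and -0.36 (SE 0.15) with overlap. Entpd5 was at -0.28 without Dnmt3a+/- replicate 2. For the UDP sugars that P2ry14 senses, 7 of 9 genes were negative (median -0.14). Ugdh, which oxidises UDP-glucose, read 7.37, 7.54 and 7.27 on wild-type arrays and 6.86, 6.94 and 7.21 on Dnmt3a+/- arrays (difference -0.39, SE 0.13). The nucleotide sugar transporter gene Slc35d2 differed by -0.45 (SE 0.16), and Ugp2, which makes UDP-glucose, by -0.26 (SE 0.14), or -0.14 without Dnmt3a+/- replicate 2.

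**Figure D5:**
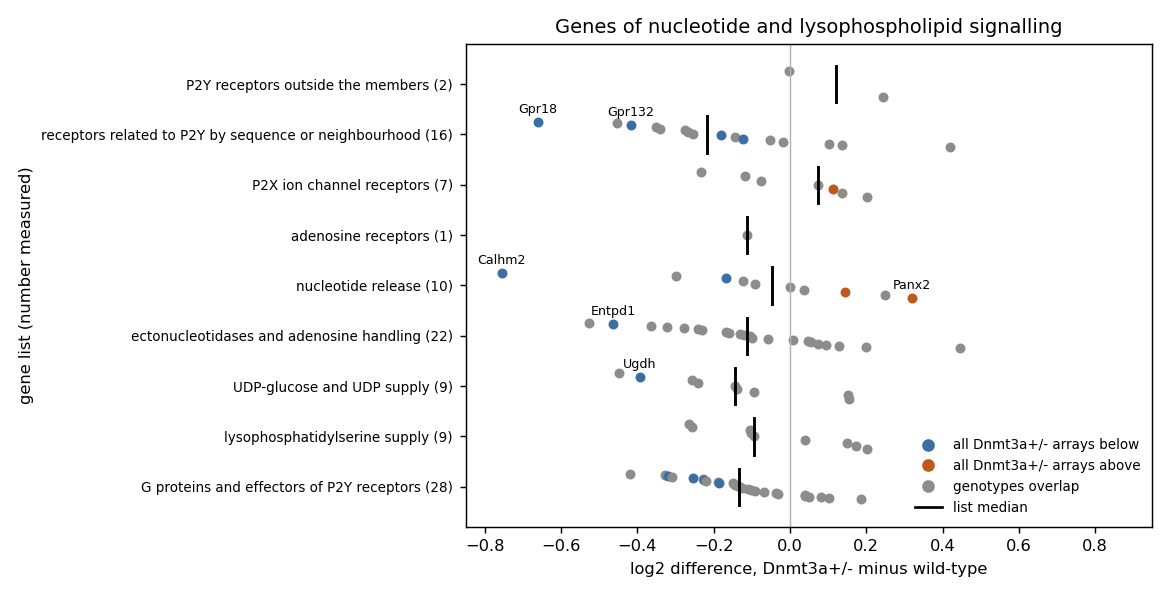
Log2 difference (Dnmt3a+/- minus wild-type) of the 104 measured genes of the 9 pathway lists; each point is a gene, colour marks genes whose genotypes do not overlap, and black lines are list medians. Calhm2 (-0.76) and Gpr18 (-0.66) lie farthest below 0.

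Genes of nucleotide release were balanced, with 5 of 10 negative (median -0.05). Calhm2, a large-pore channel gene, read 8.59, 8.15 and 8.03 on wild-type arrays and 7.44, 7.28 and 7.80 on Dnmt3a+/- arrays, a difference of -0.76 (SE 0.19). Panx2, a pannexin channel gene, lay on the other side at 0.32 (SE 0.12), also without overlap, and the connexin gene Gjb1 differed by -0.17 (SE 0.10). For lysophosphatidylserine, the ligand of the P2ry10 product, 5 of 9 genes of its making or removal were negative (median -0.09). The list mixes both, so the count gives no direction of supply. The phosphatidylserine synthase genes Ptdss1 and Ptdss2 differed by -0.26 (SE 0.12) and -0.26 (SE 0.16), and Abhd6, a lipid hydrolase gene, by 0.17 (SE 0.12). Without Dnmt3a+/- replicate 2, Ptdss2 was at -0.13 and Abhd6 at 0.11.

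Downstream of the receptors, 22 of 28 genes of G proteins and effectors were negative (median -0.13), 4 without overlap. Of all genes, 54.3% were negative and 9.05% were lower without overlap. Grk2, a kinase that desensitises G protein-coupled receptors, differed by -0.32 (SE 0.14), or -0.21 without Dnmt3a+/- replicate 2. Rasa3, a regulator of Ras and Rap1, differed by -0.26 (SE 0.11) and the phospholipase gene Plcb2 by -0.23 (SE 0.10). The P2X ion channel receptor genes had 4 of 7 positive differences (median 0.07), with P2rx2 at 0.20 (SE 0.12), P2rx3 at 0.14 (SE 0.13) and P2rx5 at 0.11 (SE 0.10). Of the adenosine receptor genes, 1 of 4 had a value, Adora3 at -0.11 (SE 0.18). Without Dnmt3a+/- replicate 2, P2rx3 was at 0.07 and Adora3 at -0.22.

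Marker lists of cells that could carry P2ry transcripts were summarised as the mean log2 value of their genes on each array. The dendritic cell list, which includes Flt3 and Irf8 of progenitors too, ran from 8.12 to 8.19 on wild-type arrays and from 8.01 to 8.02 on Dnmt3a+/- arrays, with 8 of 9 genes negative. Irf8 (-0.47) and Flt3 (-0.32) had its largest differences, and the dendritic cell genes Xcr1 (-0.01), Cd209a (-0.02), Bst2 (-0.02) and Zbtb46 (0.00) were near 0. The list of KLS cell genes ran from 9.16 to 9.23 and from 9.06 to 9.09, with 8 of 9 negative. Neither range overlapped between genotypes, while in each list 1 of 9 genes was lower without overlap (9.05% of all genes). The neutrophil list ran from 8.51 to 9.09 on wild-type arrays and from 8.90 to 9.60 on Dnmt3a+/- arrays, with 9 of 10 genes positive (median 0.28). Retnlg (0.98) and Mmp8 (0.64), both of neutrophils, were higher without overlap, as were 6.74% of all genes. The marker lists were also chosen with earlier results of these data known, so their counts are descriptions. The part of these lists in the P2ry values was not tested.

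The remaining lists, like that of neutrophils, overlapped between genotypes in their range. The B cell list (7.07 to 7.37 and 7.18 to 7.46), the T and NK cell list (6.95 to 7.08 and 6.92 to 7.06) and the platelet list (6.97 to 7.16 and 6.96 to 7.25) had 5 of 10, 4 of 11 and 4 of 12 negative genes. The monocyte and macrophage list (7.18 to 7.25 and 7.24 to 7.35) and the mast cell and basophil list (7.10 to 7.31 and 7.07 to 7.42) had 4 of 13 and 2 of 7. The erythroid list (7.34 to 7.72 and 7.47 to 7.63) and the list of endothelial and stromal genes (7.25 to 7.37 and 7.19 to 7.33) had 2 of 6 and 3 of 8. Of all genes, 54.3% were negative. Single genes of these lists ran both ways. Without overlap, the monocyte and macrophage list had 1 lower gene, Csf1r (-0.73), and 3 higher, Vcam1 (0.78), Adgre1 (0.42) and C1qb (0.17). The B cell list had 1 lower, Cd72 (-0.77), and 1 higher, Cd22 (0.51). Across all genes, 9.05% were lower and 6.74% higher without overlap.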

How the data were processed

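The authors deposited 1 table of normalized intensity values for the 6 arrays, made with RMA in Partek per the submitters' processing notes. The notes name no version or setting. Values ran from 1.84 to 22239 on a linear scale, so log2 was taken with no pseudocount. There is no sequencing depth behind such values, and the precision is set by the 3 arrays per genotype. Of 1256831 probe sets, 318760 had 1 gene symbol in the platform annotation, which can be old; 4227 of its 22296 symbols were updated through RefSeq. Probe sets above the median mean (log2 5.89) were averaged per gene. Genotypes were compared over all genes with limma 3.58.1 in R 4.3.3 (lmFit, eBayes, Benjamini-Hochberg adjustment). The fit was tested on simulated data. Differences are Dnmt3a+/- minus wild-type with the fit's SE. The 7 genes, the pathway lists and the marker lists were chosen with earlier results of these data known. Named besides the 7 were Dnmt3a, the 3 genes nearest to each in pattern and the 3 genes of each list with the smallest p. Gpr171, Med12l, Kit and Ly6a were added for context. Alternatives changed the filter, the summary of probe sets, the normalization, the variance estimation, array weights, a replicate block and single arrays. The labels do not say whether arrays that share a replicate number were paired, and the main fit treated them as unpaired.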

Additional observations from a re-analysis of the deposited data

How the results depend on the processing

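With limma, 0 genes and 0 pathway genes passed adjusted p 0.05 under any of the 14 alternatives, with 925 to 2593 genes and 6 to 11 pathway genes at an unadjusted p under 0.05. The median over the 7 P2ry genes ranged from -0.14 to 0.14 when 1 array was left out, the highest without Dnmt3a+/- replicate 2 and the lowest without Dnmt3a+/- replicate 1, so it has no settled sign. P2ry14 was lower without overlap under 14 of 14 alternatives (-0.52 to -0.26). P2ry10 was lower without overlap under 12 of 13 and had no value with the filter at the 75th percentile. P2ry2 was higher without overlap under 13 of 14 and P2ry6 under 12 of 14, the latter at 0.04 with the stricter filter. Leaving out an array cannot create an overlap where there was none. Nor can array weights, a replicate block or another variance estimation, so these counts are no measure of robustness. For P2ry14 the stricter filter, the median of probe sets, cyclic loess and a second quantile normalization could. Under these it stayed lower without overlap (-0.34, -0.52, -0.33 and -0.35). Of 104 pathway genes, 15 did not overlap (12 lower, 3 higher), and 23 without Dnmt3a+/- replicate 2 (18 lower, 5 higher), a check chosen after seeing the data. Of all 20059 genes, 2503 (12.5%) were then lower and 2007 higher without overlap, as fewer arrays overlap less often. With a replicate block 0 genes passed, and the differences of the P2ry genes were those of the unpaired fit. Deviations of same-numbered arrays correlated at -0.05, -0.09 and 0.11, and those of differently numbered arrays at -0.17 to 0.17. With 3 arrays per genotype this cannot settle whether same-numbered arrays were paired, and the labels do not say. The deposited values carry no detection call, which limits what can be said of dim probe sets.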

Other observations

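Several relatives of P2ry10 in the lists were, like it, measured mostly by dim probe sets. P2ry10b had 1 of 15 probe sets past the filter, Gpr174 had 1 of 9, Cysltr1 had 1 of 11, Gpr34 had 2 of 8 and Lpar4 had 2 of 7. Over all probe sets, P2ry10b differed by 0.32 and Gpr174 by -0.32. Lpar6, a lysophosphatidic acid receptor gene that the platform still calls P2ry5, had 8 of 9 probe sets past the filter. Over all 9 it read 8.13, 7.78 and 8.17 on wild-type arrays and 7.74, 7.43 and 7.71 on Dnmt3a+/- arrays, a difference of -0.40 without overlap. Over the 8 past the filter the genotypes overlapped, with a difference of -0.27, or -0.14 without Dnmt3a+/- replicate 2. The lack of overlap over all 9 thus depended on the dim probe set below the filter. These genes were picked out after their values were seen.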
